A study of Danio rerio with 6 samples.

Results

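The genes described here encode factors that make ribosomes in the nucleolus. RNA of whole zebrafish larvae, collected 5 days after fertilisation, was sequenced in 3 libraries of pdcd7/cx20 mutants carrying the allele pd1215 and in 3 libraries of their wild-type siblings. The set holds 50 genes chosen by symbol, out of 32520 genes in the deposited count tables. Each of the 50 was found, 49 by the symbol itself and pes under its human-style symbol PES1, and all 50 passed the filter on low counts. Every library was made from polyadenylated RNA of whole larvae, the labels place all of them in batch 1, and they mention 40 larvae without saying whether that is the number per replicate. The labels name cx20 beside pdcd7 and do not say what it stands for, so a difference between the groups cannot be assigned to pdcd7 alone. Whether the replicates are separate clutches is not stated, so the p-values measure only the spread between these libraries, which may be technical.

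A ribosome begins when RNA polymerase I copies the ribosomal DNA into a long precursor RNA. Box C/D and box H/ACA snoRNPs, small particles of RNA and protein, modify this precursor, and the small subunit processome folds and cuts it towards the small (40S) subunit while another set of factors builds the large (60S) subunit. In zebrafish, mutants in several genes of this pathway have small digestive organs and defects of the head skeleton. The PDCD7 protein belongs to the U11 snRNP, which recognises introns of the minor class. For the comparison the 50 genes were sorted by known role into 21 genes of the small subunit processome and 40S maturation, 13 genes of 60S assembly, 7 genes of the snoRNP core, 4 RNA polymerase I subunits and 5 multifunctional nucleolar proteins.

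Library totals lay between 75122088 and 87110177 counts. Levels are CPM, counts in each 1e+06 counts of the library, with library sizes scaled by TMM factors, and where genes are compared with each other they are given per kilobase of exon. All levels are of RNA, and no protein was measured. The pdcd7 transcript measured 21.8, 19.6 and 20.5 CPM in the mutant libraries, against 14.8, 14.99 and 15.3 CPM in the sibling libraries (log2 0.46 ± 0.05 SE, adjusted p = 7.92e-08 in edgeR). It was therefore present and higher in mutants, and counts per gene carry no information on the mutated site. Markers of muscle, epidermis, neurons, liver, exocrine pancreas, gut and lens were detected in the whole larvae of both groups.

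The ribosome biogenesis genes rose together in pdcd7 mutants. Of the 50 genes, 47 were higher in mutants and 1, ddx21, was lower at an adjusted p under 0.05 in edgeR, and 2, rrp1 and gnl2, were not called. Over all 24248 genes tested, 34.7% were called higher and 34.2% lower. The 48 called genes compare with 68.9% of all genes called in either direction. The median log2 fold change was 0.60 over the 50 genes and 0.01 over all genes tested. Rises of at least 1.5-fold numbered 27 of the 50, against 10.7% of all genes tested. With a test against a 1.5-fold change, 20 of the 50 were called higher and 0 lower, where that test called 5.77% of all genes higher and 7.27% lower. In 47 genes every mutant library lay above every sibling library, and in 1 gene below, where 36.4% and 35.8% of all genes showed such a separation (72.1% in either direction). Summed over the 50 genes, the level was 3834 to 3856 CPM in mutants and 2787 to 2888 CPM in siblings. Counts per gene and library ran from 210 for utp18 to 61821 for ncl, so sampling noise was small for nearly all of them.

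**Figure D1:**
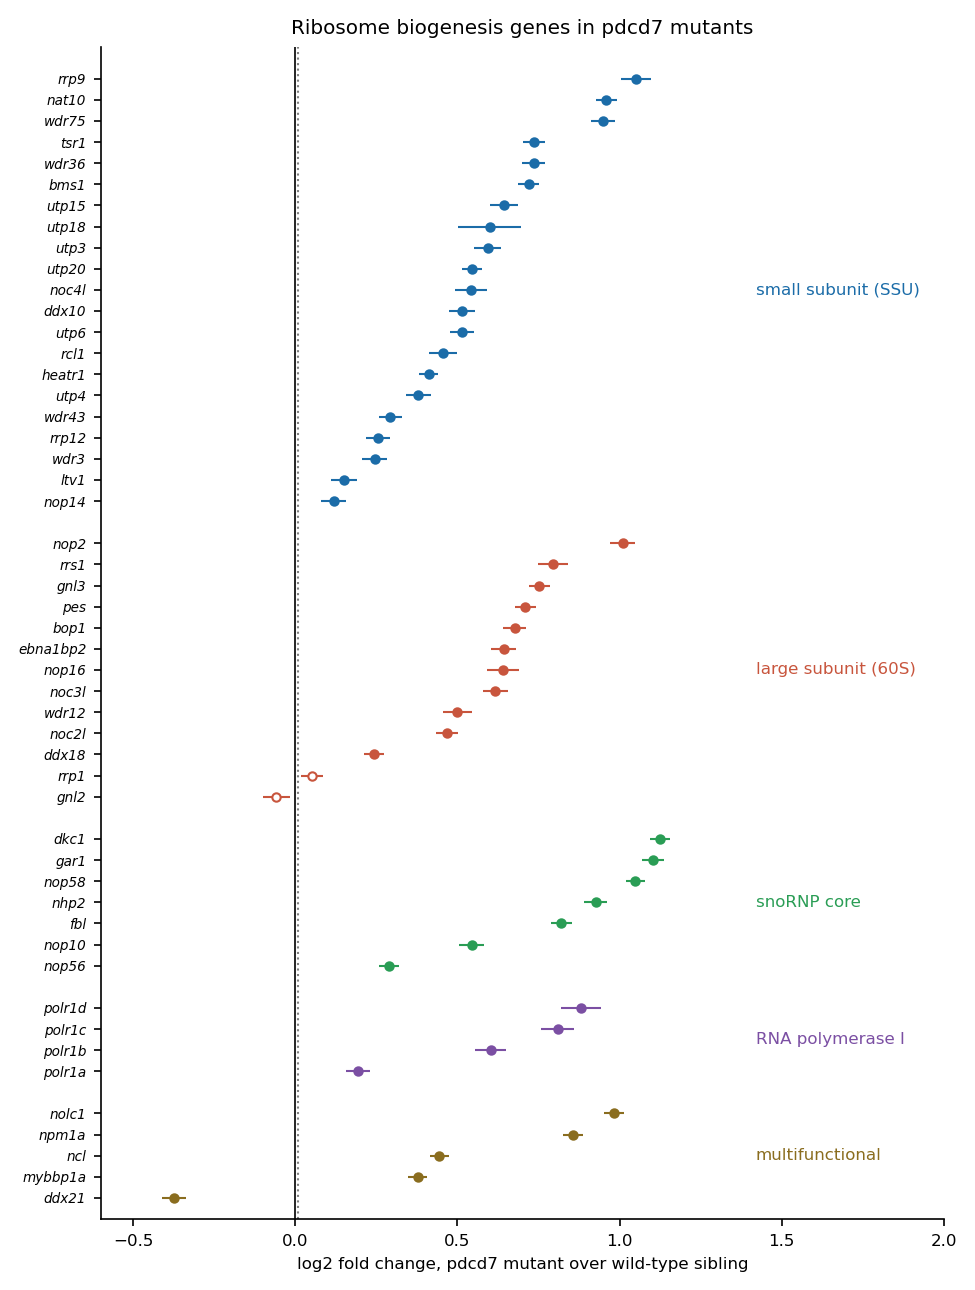
Log2 fold change (x axis, mutant over sibling) of each of the 50 genes (y axis), grouped by role, with bars for the standard error. Filled points passed the test and open points did not. The dotted line marks the median of all genes tested, and 48 of the 50 points lie to its right.

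Levels of markers of several tissues and of dividing cells moved in the same libraries. Of 29 DNA replication genes 27 rose and 0 fell, and the list summed to 1381 to 1417 CPM in mutants and 925 to 942 CPM in siblings. All 13 neural progenitor markers rose, with sums of 1174 to 1194 CPM in mutants and 869 to 886 CPM in siblings. Lower sums were found for exocrine pancreas markers, at 1323 to 1786 CPM in mutants and 12850 to 14870 CPM in siblings, where 15 of 16 fell, and for enterocyte markers, at 2135 to 2378 CPM in mutants and 4612 to 4881 CPM in siblings, where 11 of 14 fell and 1 rose. Hepatocyte markers summed to 5713 to 5800 CPM in mutants and 9214 to 9784 CPM in siblings, with 12 of 13 lower, and lens markers to 44.7 to 89.4 CPM in mutants and 1051 to 1574 CPM in siblings, with 12 of 12 lower. Of 12 neuron markers 10 fell and 1 rose, with sums of 2299 to 2379 CPM in mutants and 2913 to 3010 CPM in siblings. The sums of muscle markers were 39970 to 41070 CPM in mutants and 41690 to 43630 CPM in siblings, where 5 of 12 rose and 3 fell. These are 41.7% and 25%, where all genes tested gave 34.7% and 34.2%, and the median log2 fold change of muscle markers was 0.03. The sums of epidermis markers were 19280 to 19570 CPM in mutants and 16540 to 17250 CPM in siblings, where 8 of 12 rose and 2 fell. Of 7 erythrocyte markers tested 4 fell and 0 rose, and 57.1% lower compares with 34.2% of all genes tested. Summed over all 8 erythrocyte markers, tested or not, the level was 384 to 443 CPM in mutants and 387 to 430.3 CPM in siblings, which overlapped. In each of these lists 0 markers were at 0 counts in all 6 libraries. The part of these shifts in the nucleolar genes was not tested, and in whole larvae fewer cells of a type and less RNA per cell cannot be told apart.

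Transcripts of both catalytic subunits of RNA polymerase I, polr1a and polr1b, and of its shared subunits polr1c and polr1d were higher in mutants. The smallest of the 4 rises was that of polr1a, the largest subunit of the enzyme, with 59.9, 54.8 and 57.8 CPM in the mutant libraries, against 52.3, 50.1 and 48.5 CPM in the sibling libraries. The groups did not overlap, though the gap between them was smaller than the spread within each, and the rise was 1.14-fold (log2 0.19 ± 0.04 SE, adjusted p = 2.24e-04 in edgeR). The gene polr1b, for the catalytic subunit next in size, had 26.1, 25.7 and 25.8 CPM in the mutant libraries, against 17.6, 15.5 and 17.9 CPM in the sibling libraries (log2 0.60 ± 0.05 SE, adjusted p = 4.78e-09 in edgeR). The lowest of its mutant libraries lay well above the highest of its sibling libraries. The remaining subunits in the set, polr1c and polr1d, are shared with RNA polymerase III, which makes 5S rRNA and tRNA. Of these, polr1c stood at 19.6, 19.6 and 21.5 CPM in the mutant libraries, against 11.2, 12.1 and 11.3 CPM in the sibling libraries (log2 0.81 ± 0.05 SE, adjusted p = 1.45e-10 in edgeR). The other, polr1d, was the least abundant of the 4 in CPM, at 11.4, 11.03 and 10.4 CPM in the mutant libraries, against 6.24, 5.62 and 5.97 CPM in the sibling libraries, and rose most, 1.84-fold (log2 0.88 ± 0.06 SE, adjusted p = 6.77e-10 in edgeR). Per kilobase the order differed, and polr1d had the highest level of the 4, 16.4 CPM per kilobase in mutants and 8.91 in siblings. The catalytic subunits had lower levels per kilobase, 7.58 CPM per kilobase in mutants and 6.63 in siblings for polr1a and 7.33 CPM per kilobase in mutants and 4.83 in siblings for polr1b.

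Of the 5 multifunctional nucleolar genes 4 rose and ddx21 fell. The gene nolc1 encodes Nopp140, a chaperone of snoRNPs, and measured 114, 109 and 112 CPM in the mutant libraries, against 56.4, 56.7 and 56.1 CPM in the sibling libraries. This was a rise of 1.98-fold (log2 0.98 ± 0.03 SE, adjusted p = 1.18e-14 in edgeR). The histone and ribosome chaperone nucleophosmin, gene npm1a, measured 219.5, 220.1 and 226 CPM in the mutant libraries, against 126, 123 and 119 CPM in the sibling libraries (log2 0.86 ± 0.03 SE, adjusted p = 7.35e-14 in edgeR). Nucleolin, gene ncl, was the most abundant of the 50 genes in CPM, with 664, 675 and 688 CPM in the mutant libraries, against 494, 493 and 503 CPM in the sibling libraries (log2 0.44 ± 0.03 SE, adjusted p = 3.26e-10 in edgeR). In all 3 of these genes the 2 groups were well apart. The gene mybbp1a, for a nucleolar protein that also binds transcription factors, had 89.7, 89.0 and 90.7 CPM in the mutant libraries, against 70.0, 68.8 and 68.7 CPM in the sibling libraries (log2 0.38 ± 0.03 SE, adjusted p = 2.67e-09 in edgeR).

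The exception, ddx21, encodes an RNA helicase that binds ribosomal RNA and snoRNAs. It measured 311, 317 and 310.0 CPM in the mutant libraries, against 430.1, 387 and 399 CPM in the sibling libraries, and each mutant library lay below each sibling library. The decrease was 1.30-fold (log2 -0.37 ± 0.04 SE, adjusted p = 5.26e-08 in edgeR), and the call stood in each alternative run except the test against a 1.5-fold change. In mutants ncl had the highest level per kilobase of the 50 genes, 189 CPM per kilobase, followed by ddx21 at 123. In siblings the order of the pair was the other way round, with 159 CPM per kilobase for ddx21 and 139 for ncl.

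All 21 genes of the small subunit processome and 40S maturation were higher in mutants, with a median log2 fold change of 0.54 and a range of 0.12 to 1.05. The smallest p was that of nat10, which acetylates the small subunit rRNA, at 60.5, 59.9 and 60.4 CPM in the mutant libraries, against 31.6, 30.2 and 31.2 CPM in the sibling libraries. Spread within each group was under 1.5 CPM, and the gene was 1.94-fold higher (log2 0.96 ± 0.03 SE, adjusted p = 3.69e-14 in edgeR). Exons of nat10 overlap another gene on the same strand over 1158 bases, so its counts are uncertain to that extent. The gene wdr75, of the UTP-A subcomplex that binds the start of the precursor first, measured 47.1, 44.5 and 45.1 CPM in the mutant libraries, against 22.8, 23.9 and 24.0 CPM in the sibling libraries (log2 0.95 ± 0.04 SE, adjusted p = 2.12e-13 in edgeR). The gene rrp9, for a protein of the U3 snoRNP, showed the largest rise of the 21, 2.07-fold, with 29.1, 28.4 and 29.2 CPM in the mutant libraries, against 14.7, 14.3 and 12.8 CPM in the sibling libraries (log2 1.05 ± 0.05 SE, adjusted p = 1.58e-12 in edgeR). The GTPase gene bms1 had 71.6, 68.6 and 68.3 CPM in the mutant libraries, against 42.6, 43.0 and 41.0 CPM in the sibling libraries (log2 0.72 ± 0.03 SE, adjusted p = 2.41e-12 in edgeR). For each of these genes the lowest mutant value exceeded the highest sibling value by more than the spread within either group.

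The other genes of this group rose less evenly. In the UTP-A subcomplex, wdr75 stood far above its partners utp15 (log2 0.64 ± 0.04 SE), heatr1 (log2 0.41 ± 0.03 SE), utp4 (log2 0.38 ± 0.04 SE) and wdr43 (log2 0.29 ± 0.03 SE). In the UTP-B subcomplex, a scaffold of the processome, wdr36 rose by log2 0.74 ± 0.04 SE, utp18 by 0.60 ± 0.10, utp6 by 0.51 ± 0.04 and wdr3 by 0.24 ± 0.04. The deposited model of utp18 spans only 312 bases of exon, so its counts, 210 to 398 per library, come from a short model. Its SE is the widest among the 50 genes. The scaffold gene utp20 (log2 0.55 ± 0.03 SE), the processome gene utp3 (log2 0.59 ± 0.04 SE) and the helicase gene ddx10 (log2 0.51 ± 0.04 SE) lay near the middle of the group. The cyclase-like partner of Bms1, rcl1, rose by log2 0.46 ± 0.04 SE.

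The remaining genes of the group, of later 40S steps and of the nucleolus, rose by log2 0.12 to 0.74. The GTPase-like factor gene tsr1 rose by log2 0.74 ± 0.03 SE (71.1 ± 0.602 CPM in mutants and 42.7 ± 1.88 CPM in siblings; SD, n = 3 each). The export factor gene rrp12 rose by 0.25 ± 0.04 and ltv1, whose protein leaves the nucleus with the 40S precursor, by 0.15 ± 0.04. Of noc4l and nop14, whose proteins are partners in the nucleolus, noc4l rose by 0.54 ± 0.05 and nop14 by only 0.12 ± 0.04. Values of nop14 were 40.9, 37.9 and 37.9 CPM in the mutant libraries, against 36.9, 35.6 and 34.9 CPM in the sibling libraries (adjusted p = 0.0110 in edgeR). The gap between the groups was smaller than the spread within mutants, and the call ended without mutant replicate 1 (log2 0.08, adjusted p = 0.0787) or sibling replicate 3 (log2 0.10, adjusted p = 0.0587).

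**Figure D2:**
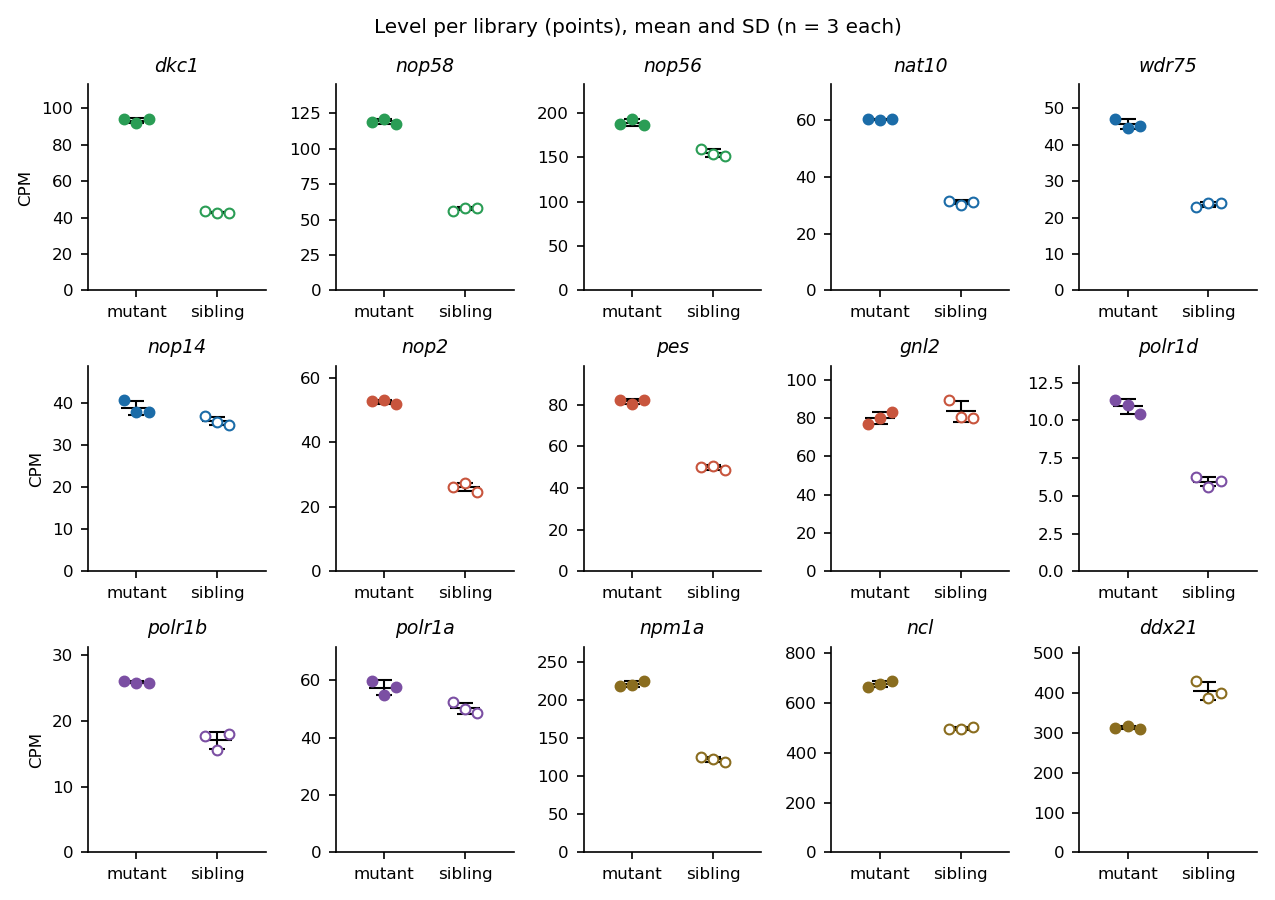
Level in CPM (y axis, from 0) of 15 genes in each library, mutants as filled points on the left and siblings as open points on the right, with the mean and SD (n = 3 each). The groups are far apart in dkc1, nop58 and nat10, close in nop14 and polr1a, overlapping in gnl2, and turned round in ddx21.

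The snoRNP core was the role group with the highest median log2 fold change, 0.93, and all 7 of its genes were higher. The group held 3 of the 5 genes in the set that rose at least 2-fold, where 3.34% of all genes tested were called higher by as much. Box H/ACA particles change uridine to pseudouridine. Of the genes for their proteins, dkc1, for the synthase dyskerin, showed the largest rise of all 50 genes, 2.18-fold. It had 93.9, 91.6 and 94.2 CPM in the mutant libraries, against 43.4, 42.4 and 42.5 CPM in the sibling libraries (log2 1.12 ± 0.03 SE, adjusted p = 2.28e-15 in edgeR). Its partner gar1 had 58.6, 56.2 and 56.0 CPM in the mutant libraries, against 26.2, 26.9 and 26.3 CPM in the sibling libraries (log2 1.104 ± 0.03 SE, adjusted p = 1.08e-14 in edgeR). These changes were nearly equal. The gene nhp2 stood at 36.3, 35.3 and 36.4 CPM in the mutant libraries, against 19.0, 18.9 and 18.9 CPM in the sibling libraries (log2 0.93 ± 0.04 SE, adjusted p = 2.07e-13 in edgeR). The gene nop10, for the smallest of the 4 proteins, rose less, with 37.4, 36.1 and 34.4 CPM in the mutant libraries, against 24.5, 24.99 and 24.5 CPM in the sibling libraries (log2 0.54 ± 0.04 SE, adjusted p = 6.61e-10 in edgeR). Mutant and sibling libraries were fully separated in all 4 genes.

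Among the genes for proteins of box C/D particles, which methylate ribose, nop58 rose most. It had 119, 121 and 118 CPM in the mutant libraries, against 56.3, 58.3 and 58.2 CPM in the sibling libraries (log2 1.05 ± 0.03 SE, adjusted p = 4.83e-15 in edgeR). The methyltransferase fibrillarin, gene fbl, measured 122, 114 and 117 CPM in the mutant libraries, against 67.7, 67.6 and 64.7 CPM in the sibling libraries (log2 0.82 ± 0.03 SE, adjusted p = 3.63e-13 in edgeR). The gene nop56, whose protein pairs with that of nop58 in the same particle, was the more abundant of the pair and rose least of the 7, 1.22-fold, with 188, 193 and 186 CPM in the mutant libraries, against 159, 154 and 151 CPM in the sibling libraries (log2 0.29 ± 0.03 SE, adjusted p = 2.08e-07 in edgeR). Per kilobase nop58 and nop56 stood at 53.1 CPM per kilobase in mutants and 25.6 in siblings for the first and 57.0 CPM per kilobase in mutants and 46.6 in siblings for the other. The levels of this pair were thus closer to each other in mutants than in siblings.

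Of 13 genes of 60S assembly 11 were higher in mutants and 0 lower, with a median log2 fold change of 0.64. The gene nop2, for a methyltransferase of the large subunit rRNA, rose 2.01-fold and measured 52.7, 53.2 and 52.0 CPM in the mutant libraries, against 26.3, 27.4 and 24.8 CPM in the sibling libraries (log2 1.01 ± 0.04 SE, adjusted p = 1.45e-13 in edgeR). Nucleostemin, the GTPase encoded by gnl3, had 85.7, 83.9 and 86.2 CPM in the mutant libraries, against 50.7, 52.3 and 48.9 CPM in the sibling libraries (log2 0.75 ± 0.03 SE, adjusted p = 1.00e-12 in edgeR). The groups were clearly apart in both. Pescadillo (pes) and its partners bop1 and wdr12 form the PeBoW complex, which is needed to process the large subunit rRNA. Here pes measured 82.2, 80.3 and 82.3 CPM in the mutant libraries, against 50.3, 50.7 and 48.7 CPM in the sibling libraries (log2 0.71 ± 0.03 SE, adjusted p = 1.10e-12 in edgeR). The gene bop1 had 51.3, 50.8 and 50.3 CPM in the mutant libraries, against 33.1, 31.1 and 31.1 CPM in the sibling libraries (log2 0.68 ± 0.04 SE, adjusted p = 1.01e-11 in edgeR), a change close to that of pes. The rise of wdr12 was smaller, log2 0.50 ± 0.05 SE.

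The remaining risers of this group were rrs1, which brings the 5S particle into the subunit (log2 0.80 ± 0.05 SE), ebna1bp2 (log2 0.64 ± 0.04 SE), nop16 (log2 0.64 ± 0.05 SE) and the partner genes noc3l (log2 0.62 ± 0.04 SE) and noc2l (log2 0.47 ± 0.03 SE). The helicase gene ddx18 rose only 1.18-fold (log2 0.24 ± 0.03 SE). Neither rrp1 nor gnl2 was called. The processing factor gene rrp1 had 47.8, 47.9 and 50.05 CPM in the mutant libraries, against 48.5, 45.5 and 46.7 CPM in the sibling libraries (log2 0.05 ± 0.03 SE, adjusted p = 0.199 in edgeR). It passed with upper quartile scaling (log2 0.09, adjusted p = 0.0268) and with library size only (log2 0.12, adjusted p = 0.00501). The GTPase gene gnl2 had 77.0, 80.0 and 83.0 CPM in the mutant libraries, against 89.4, 80.6 and 80.1 CPM in the sibling libraries (log2 -0.06 ± 0.04 SE, adjusted p = 0.235 in edgeR), and its sign turned to 0.01 with library size only. In both genes the 2 groups overlapped. The related GTPase genes gnl2 and gnl3 therefore stood at different changes within the same libraries.

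Set side by side, the role groups shared their direction and differed in size. Median log2 fold changes were 0.93 for the snoRNP core, 0.71 for RNA polymerase I, 0.64 for 60S assembly, 0.54 for the small subunit genes and 0.44 for the multifunctional genes. Rises of at least 1.5-fold were seen in 5 of 7, 3 of 4, 8 of 13, 9 of 21 and 2 of 5 genes in the same order. Of all genes tested 10.7% rose by as much. The ranges overlapped widely, since each group held a gene under log2 0.30, and no test was made between groups of genes, which are not replicates. The summed level of the small subunit genes was 1015 to 1031 CPM in mutants and 712 to 748 CPM in siblings. For 60S assembly it was 649.7 to 654 CPM in mutants and 457 to 479.9 CPM in siblings. Ratios of mutant to sibling were 1.40 (small subunit) and 1.39 (60S), so these sums stood in nearly the same proportion in both genotypes. The further genes listed below differed more, with ratios of 1.37 (small subunit) and 1.125 (60S). Their medians stood in the opposite order, 0.52 (small subunit) and 0.46 (60S). The snoRNP core summed to 642 to 655 CPM in mutants and 386 to 396 CPM in siblings, a ratio of 1.65. RNA polymerase I subunits summed to 111 to 117 CPM in mutants and 83.4 to 87.4 CPM in siblings, a ratio of 1.35.

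**Figure D3:**
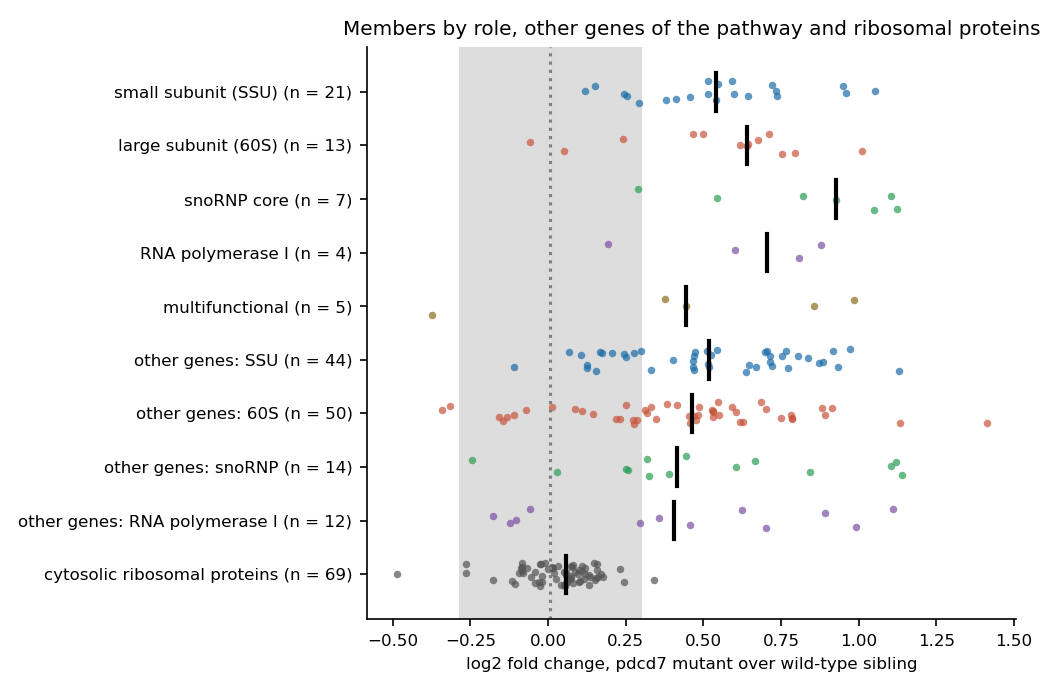
Log2 fold change (x axis, mutant over sibling) of single genes (points) in the 5 role groups, in 4 lists of other genes of the pathway and in cytosolic ribosomal proteins, with black bars for medians. The grey band is the middle range (quartiles) of all genes tested and the dotted line their median. Medians of the role groups lie between 0.44 and 0.93, and that of ribosomal proteins at 0.06.

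Some partners in a complex differed in their change. Ratios of levels per kilobase within a library, from which the scaling of libraries drops out, were taken for 11 pairs of partners. The pairs were chosen after the values were seen, so they are described without a test. How often partners differ cannot be read from them, and no share over other pairs of genes was computed. The gene with the larger rise mostly stands on top, which sets the direction of most ratios. In 9 of the 11 pairs all mutant ratios lay above all sibling ratios, by log2 0.15 to 0.76. The ratio of nop58 to nop56 was 0.937, 0.925 and 0.934 in the mutant libraries, against 0.522, 0.561 and 0.568 in the sibling libraries, a difference of log2 0.76. For wdr75 to wdr43 it was 0.379, 0.349 and 0.348 in the mutant libraries, against 0.211, 0.242 and 0.231 in the sibling libraries (log2 0.66). The mutant ratios of both pairs lay far above the sibling ratios.

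In the box H/ACA particle the ratio of dkc1 to nop10 was 0.776, 0.785 and 0.845 in the mutant libraries, against 0.547, 0.525 and 0.537 in the sibling libraries (log2 0.58), and that of gar1 to nhp2 0.807, 0.796 and 0.771 in the mutant libraries, against 0.689, 0.712 and 0.698 in the sibling libraries (log2 0.18). The catalytic subunits polr1b and polr1a of RNA polymerase I had ratios of 0.935, 1.01 and 0.957 in the mutant libraries, against 0.724, 0.666 and 0.795 in the sibling libraries (log2 0.41). These groups of ratios did not overlap. For noc4l to nop14 the ratios were 0.713, 0.691 and 0.755 in the mutant libraries, against 0.538, 0.539 and 0.533 in the sibling libraries (log2 0.42), and for bms1 to rcl1 0.902, 0.922 and 0.920 in the mutant libraries, against 0.754, 0.805 and 0.728 in the sibling libraries (log2 0.26). Smaller shifts were found for pes to wdr12 (log2 0.21) and noc3l to noc2l (log2 0.15). In the remaining pairs the genotypes overlapped. The ratio of pes to bop1 was 2.05, 2.02 and 2.10 in the mutant libraries, against 1.94, 2.08 and 2.01 in the sibling libraries (log2 0.03), and that of polr1c to polr1d 0.713, 0.736 and 0.853 in the mutant libraries, against 0.743, 0.893 and 0.785 in the sibling libraries (log2 -0.07).

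**Figure D4:**
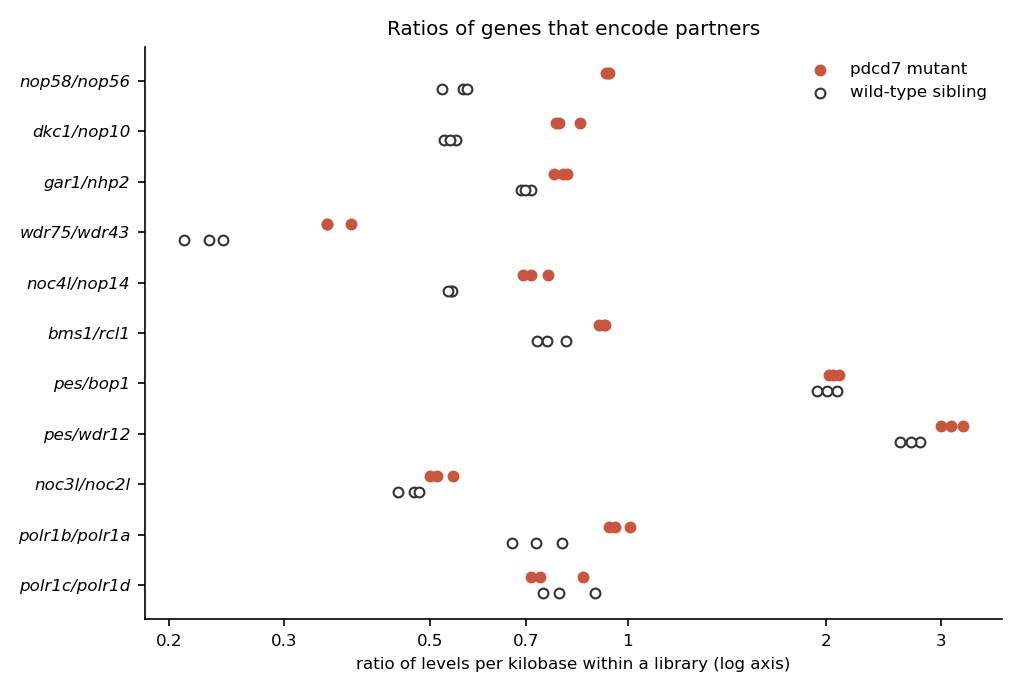
Ratio of levels per kilobase (x axis, log scale) for 11 pairs of partner genes (y axis) in each mutant library (filled) and sibling library (open). The mutant points lie to the right of the sibling points in 9 pairs and overlap them in pes/bop1 and polr1c/polr1d. The pairs were chosen after the values were seen, mostly with the larger rise on top, which sets the direction of most ratios.

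Other genes of the pathway rose more often than they fell. Their lists were written from general knowledge, but with earlier results of these data known. The counts of these genes are therefore not an independent test of the rise described above. Of 120 such genes 100 were higher and 10 lower in mutants, against 34.7% and 34.2% of all genes, with a median log2 fold change of 0.47. Among 44 further small subunit genes 39 rose and 1 fell (median 0.52). That list includes wdr5, which is better known from histone methyltransferase complexes. The kinase gene riok3 rose by log2 0.97 ± 0.03 SE (91.8 ± 2.71 CPM in mutants and 46.8 ± 0.733 CPM in siblings; SD, n = 3 each) and nol6, a processome protein, by log2 0.92 ± 0.03 SE. The gene pno1, which masks the end of the small subunit rRNA, was slightly lower (log2 -0.11 ± 0.04 SE, adjusted p = 0.0125 by edgeR). The call of pno1 ended with upper quartile scaling (adjusted p = 0.108), with library size only (0.358) and without sibling replicate 1 (0.0876).

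In the list of 50 further 60S genes 41 rose and 6 fell (median 0.46). These are 82% and 12%, where all genes tested gave 34.7% and 34.2%. The list summed to 2971 to 3023 CPM in mutants and 2634 to 2724 CPM in siblings, a ratio of 1.125. The GTPase gene lsg1, which acts on 60S subunits in the cytoplasm, rose by log2 1.13 ± 0.03 SE. The cofactor gene dnajc21 rose by log2 1.41 ± 0.05 SE, the largest change of the 120 genes (17.6 ± 0.264 CPM in mutants and 6.61 ± 0.346 CPM in siblings; SD, n = 3 each). Lower values were found for nsa2 (log2 -0.34 ± 0.03 SE, adjusted p = 1.55e-08 in edgeR), a 60S factor with 274 ± 4.97 CPM in mutants and 348 ± 6.76 CPM in siblings (SD, n = 3 each), and for rsl1d1 (log2 -0.32 ± 0.04 SE, adjusted p = 5.59e-07 in edgeR). The other lower genes were sdad1 (log2 -0.16), nop53 (-0.15), rsl24d1 (-0.13) and gtpbp4 (-0.11). With library size only these 4 were not called, which left 2 lower genes. Of 14 genes of snoRNP assembly 12 rose and 1 fell (median 0.42), or 85.7% and 7.14%, against the same shares of all genes. Both genes of SNU13, the protein of box C/D particles that binds the RNA first, rose, ENSDARG00000023299 by log2 1.105 ± 0.03 SE and ENSDARG00000069878 by log2 1.14 ± 0.04 SE. Reads of such near-identical copies may have been split or lost in counting. The exception shq1, which guards dyskerin during assembly, fell (log2 -0.25 ± 0.05 SE, adjusted p = 4.59e-04 by edgeR).

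Other genes of RNA polymerase I and its factors mostly rose. Of 12 further genes 8 rose and 2 fell (median 0.41). These are 66.7% and 16.7%, where all genes tested gave 34.7% and 34.2%. Their summed level changed little, with 503 to 509.7 CPM in mutants and 489.6 to 502 CPM in siblings, a ratio of 1.02. Subunit genes polr1e and polr1f rose by log2 0.99 ± 0.05 SE for the first and log2 0.89 ± 0.05 SE for the other. The upstream binding factor gene ubtf, which marks active ribosomal DNA, measured 128, 136 and 133 CPM in the mutant libraries, against 144, 151 and 154 CPM in the sibling libraries. The level of ubtf was thus lower in mutants (log2 -0.18 ± 0.03 SE, adjusted p = 1.07e-04 by edgeR), and its relative ubtfl had 51.5 ± 0.654 CPM in mutants and 55.4 ± 1.23 CPM in siblings (SD, n = 3 each; log2 -0.10 ± 0.03 SE, adjusted p = 0.00762 in edgeR). The call of ubtfl ended with upper quartile scaling (adjusted p = 0.0862) and with library size only (0.394).

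The genes for proteins of the ribosome itself stood at a smaller change than those for the factors that assemble it. Of 69 cytosolic ribosomal protein genes 21 rose and 9 fell, or 30.4% and 13.04% where all genes tested gave 34.7% and 34.2%, and 0 of them changed by 1.5-fold. Their median log2 fold change was 0.06, and their summed level was 48630 to 52070 CPM in mutants and 47820 to 50420 CPM in siblings, which overlapped between genotypes. Several ribosomal protein genes have near-identical copies, so their counts per gene are uncertain.

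Lists of neighbouring programmes were read from the same fit. MYC proteins drive ribosome biogenesis genes in many cells. Of 11 genes of the MYC family and its cofactors 7 rose and 3 fell (median 0.14). These are 63.6% and 27.3%, where all genes tested gave 34.7% and 34.2%. The list mixes MYC genes with genes of other roles. Each MYC gene in it rose, by log2 0.35 (mych) to 0.78 (mycla). The genes that fell were mxd3 (log2 -0.14), mxd4 (-0.15) and mga (-0.19). The gene mycn had 84.5, 86.4 and 84.7 CPM in the mutant libraries, against 51.1, 52.4 and 53.4 CPM in the sibling libraries (log2 0.70 ± 0.03 SE, adjusted p = 1.15e-12 in edgeR), with no overlap. The MYC gene ENSDARG00000045695 rose by log2 0.55 ± 0.03 SE. In the list of 29 DNA replication genes uhrf1 rose by log2 0.93 ± 0.03 SE and pole, a DNA polymerase gene, by log2 0.76 ± 0.04 SE. The median log2 fold change of that list was 0.59, close to the 0.60 of the 50 ribosome biogenesis genes. Rises of at least 1.5-fold numbered 15 of its 29 genes, against 10.7% of all genes tested.

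The 50 genes lie on 21 chromosomes of build GRCz11, with at most 7 on 1 of them, chromosome 21. A single gene, nop10 (ENSDARG00000104227, chromosome 7, 1505507 to 1508912, plus strand), is on the chromosome of pdcd7, 12.2 megabases away. The gene dkc1 (ENSDARG00000016484, chromosome 21, 43702010 to 43716471, plus strand) spans 5 annotated snoRNA genes, ncl (ENSDARG00000002710, chromosome 22, 36673312 to 36690751, minus strand) spans 3 and nop58 (ENSDARG00000104353, chromosome 6, 9664206 to 9695294, minus strand) spans 1. An exon of ncl overlaps a snoRNA gene over 131 bases, and exons of nat10 (ENSDARG00000054259, chromosome 18, 38213778 to 38245062, minus strand) overlap the gene si:dkey-10o6.2 over 1158 bases on the same strand, so reads there could be left uncounted or shared. The gene ddx21 is annotated as ENSDARG00000063626, chromosome 13, 319575 to 330004, minus strand. The 50 genes had a median of 16 merged exons, against 7 over all genes tested, and rrs1 has 1. Their level per kilobase in siblings had a median at the percentile 77.9 of all genes tested, from 45.7 for ebna1bp2 to 98.5 for ddx21. The length used covers all annotated exons of a gene, 5174 bases for ebna1bp2, so levels per kilobase depend on the gene model. Within the 50 genes, log2 level per kilobase in siblings and log2 fold change had a Pearson correlation of -0.34 and a Spearman correlation of -0.24. This is across genes of the same libraries, where the sibling level enters both measures, and over all genes tested the values were -0.20 and -0.15.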

How the data were processed

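RNA of 6 libraries of whole zebrafish larvae was analysed, 3 of each genotype. The deposited files hold raw, unscaled counts of read pairs for each gene. Per the file headers, featureCounts 1.6.3 counted paired, strand-specific reads (setting 2) over exons of Ensembl release 115, build GRCz11. The submitters' processing notes also name Trimmomatic 0.38, STAR 2.7.11 and Subread 1.6.3. Reads in introns were not counted, and the headers show no option for reads with several alignments, so near-identical copies can lose reads. The deposited gene length column (other unit, bases of exon) gave levels per kilobase.

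Symbols came from a table that matched 29201 of 32520 IDs (89.8%). List entries without a direct match were matched by dropping the paralogue letter or by a synonym. Some entries therefore cover several IDs, and the counts of list genes are counts of IDs. Unmatched entries were left out, among them 3 of the exocrine pancreas list and 2 of the erythrocyte list. The test was edgeR 4.0.16 (R 4.3.3), quasi-likelihood F-test with robust estimation, two-sided, after filterByExpr and TMM scaling, with genotype as the only term and Benjamini-Hochberg adjustment over 24248 genes at 0.05. Log2 fold changes are mutant minus sibling. The steps were tested on simulated data. Alternatives were other scalings and filters, DESeq2 1.42.0, limma 3.58.1 (voom), the replicate number as a block, a test against 1.5-fold, each library left out and, chosen after seeing the data, no robust estimation. A count of 0 allows 3 counts, or 0.0334 to 0.0410 CPM, which covers counting error only. The 50 genes and the lists were chosen with earlier results of these data known. Values per library are given for all genes of groups of up to 5, the 4 smallest p of each larger group, genes against the majority, and genes singled out after their values were seen (nop14, nop10, fbl, nop56, rrp1, gnl2). From other lists the genes with the smallest p are named, 2 per direction for the pathway. Some genes that this rule names, and 1 list, are not reported here. No sequences were used here. Figures were drawn with matplotlib 3.10.9.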

Additional observations from a re-analysis of the deposited data

How the results depend on the processing

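Of the 50 genes, 46 to 48 were called higher and 1 lower under each scaling, filter, tool and left-out library, and with the replicate block 47 were higher and 1 lower, with a median log2 fold change of 0.60. The replicate numbers did not pair the libraries, with correlations of deviations of 0.0207, -0.0413 and -0.0023 for numbers 1, 2 and 3, and the block changed no call among the 50. Apart from the test against 1.5-fold, the calls that changed among the 50 were those of nop14 and rrp1, and 0 called genes turned their sign. Leaving out each library gave 46 to 47 higher genes and medians of 0.59 to 0.62.

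Upper quartile scaling moved the median of all genes to 0.05 and the medians to 0.64 for the 50 genes, 0.97 for the snoRNP core, 0.75 for RNA polymerase I, 0.68 for 60S assembly and 0.49 for multifunctional genes. Library size only moved that of all genes to 0.08 and these to 0.67, 1.00, 0.78, 0.71 and 0.52, and that of small subunit genes to 0.61. For other genes of the pathway, upper quartile scaling gave medians of 0.56 (small subunit) and 0.51 (60S), and library size only 0.59, 0.54, 0.49 (snoRNP) and 0.48 (RNA polymerase I). Under both, 0 of the small subunit list and 1 of the RNA polymerase I list were lower, and with library size only 2 of the 60S list. With the replicate block 3 of the RNA polymerase I list were lower, and left-out libraries gave 2 to 3. Left-out libraries gave medians of 0.36 to 0.45 for the snoRNP list, lowest without mutant replicate 1, and 0 to 1 lower genes in the small subunit list, 0 without sibling replicate 1.

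The test against 1.5-fold, a stricter question, called 20 of the 50 genes higher and 0 lower: 6 small subunit, 5 of 60S assembly, 5 of the snoRNP core, 2 of RNA polymerase I and 2 multifunctional genes, with 0 lower in each. In the other lists it called 17 small subunit, 10 of 60S, 5 snoRNP and 3 RNA polymerase I genes higher and 0 lower. Over all genes tested it called 5.77% higher and 7.27% lower. Depth limits mainly utp18, at 210 to 398 counts.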
